A study of Homo sapiens with 6 samples.

Results

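Growth factor receptor tyrosine kinases were followed as 10 genes, EGFR, ERBB2, ERBB3, MET, MST1R, AXL, EPHA2, INSR, FGFR1 and DDR1, taken by symbol from a count table of 40173 genes. The table came from RNA-Seq of the total RNA of cells labelled A549, a human lung adenocarcinoma cell line, which had been transfected with siRNA against the long noncoding RNA FAM83H-AS1 (silenced) or with a negative control (control), in 3 libraries per group. RNA was taken the day after transfection. The sequence of the control and which of the tested siRNAs was used for these libraries are not given in the sources used here, and neither is whether the replicates were separate cultures, so the p-values measure the spread between these libraries.

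Receptor tyrosine kinases cross the cell membrane once, bind a ligand outside the cell and phosphorylate tyrosines on each other and on adaptors inside it, from where the RAS-MAPK, PI3K-AKT and STAT pathways start. EGFR, ERBB2 and ERBB3 form one family of partners, MET and MST1R are the receptors for hepatocyte growth factor and macrophage-stimulating protein, and AXL, EPHA2, INSR, FGFR1 and DDR1 each stand for another family. In lung adenocarcinoma, EGFR, ERBB2 and MET are known oncogenes, and MET, AXL and ERBB3 are known for bypassing drugs against EGFR.

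The targeted RNA was lower in each silenced library. FAM83H-AS1 was at 14.5, 16.0 and 17.3 CPM, counts scaled for depth after TMM normalization, in control replicates 1, 2 and 3 and at 4.59, 4.44 and 5.58 CPM in silenced replicates 1, 2 and 3, a log2 fold change of -1.70 ± 0.148 (SE; edgeR quasi-likelihood test, adjusted p = 7.99e-05). Library totals ranged from 9738291 to 17742643 counts, and every pair of replicates spread beyond Poisson noise (chi-square divided by its degrees of freedom, 4.2 to 29.7).

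The cell line label was checked as well, and several markers went against it in both groups. A549 cells are known to have lost CDKN2A, CDKN2B and MTAP on chromosome 9, yet CDKN2A was at 62.9 ± 10.4 CPM in control and 50.7 ± 2.67 CPM in silenced libraries, CDKN2B at 13.4 ± 0.707 and 15.2 ± 0.9499 CPM and MTAP at 38.3 ± 0.844 and 36.1 ± 3.31 CPM (SD, n = 3). CDKN2B and MTAP were looked up after the value of CDKN2A had been seen. ALDH1A1, which is abundant in A549, had 0 counts in 5 libraries and 2 counts in the other. Among markers of A549 or lung epithelium, KRT8, KRT18, NQO1 and AKR1C1 were abundant, whereas EPCAM, KRT19, CDH1 and AKR1B10 stayed under 5 CPM in every library. KRT18 was lower after silencing (edgeR adjusted p = 0.00266) and AKR1B10 higher (adjusted p = 0.0135). The 10 markers of immune, endothelial, fibroblast and smooth muscle cells summed to 133.8 to 153 CPM in control and 235 to 263 CPM in silenced libraries, nearly all of it CD68, a lysosomal protein that is not limited to macrophages. Without CD68 the sums were 9.07 to 12.7 CPM and 9.22 to 12.7 CPM, and CD3E was at 0 in all 6 libraries. What part the identity of the cells or the rise of CD68 had in the results that follow was not tested, and the cells are called by their label only.

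EGFR, MET and ERBB3 rose after silencing and ERBB2 fell, while the other 6 receptors did not pass the test. All 10 were among the 15250 genes tested, and 4 of 10 passed an adjusted p of 0.05 (edgeR), 3 higher and 1 lower. Over all tested genes 17.0% passed, 8.75% higher and 8.27% lower, and among the 5003 tested genes that were at or above the mean level of the lowest receptor, ERBB3, 24.7% passed. The changes were small: none of the 10 exceeded a fold change of 2, which 2.14% of tested genes did with an adjusted p under 0.05. The median log2 fold change of the 10 receptors was 0.17, with 7 above 0, compared with a median of -0.0007 over all tested genes. Without control replicate 2 the median of the 10 was 0.10. The libraries of both groups did not overlap for 4 of the 10 receptors, compared with 36.6% of tested genes (19.1% with the silenced libraries above and 17.5% below) and 45.4% of those at or above the level of ERBB3. At 3 against 3 libraries, the smallest p that a two-sided exact permutation test can give for a receptor is 0.1, which each of the 4 non-overlapping receptors reached. Bulk counts cannot tell a change in the share of cells that carry an mRNA from a change in the amount per cell.

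**Figure D1:**
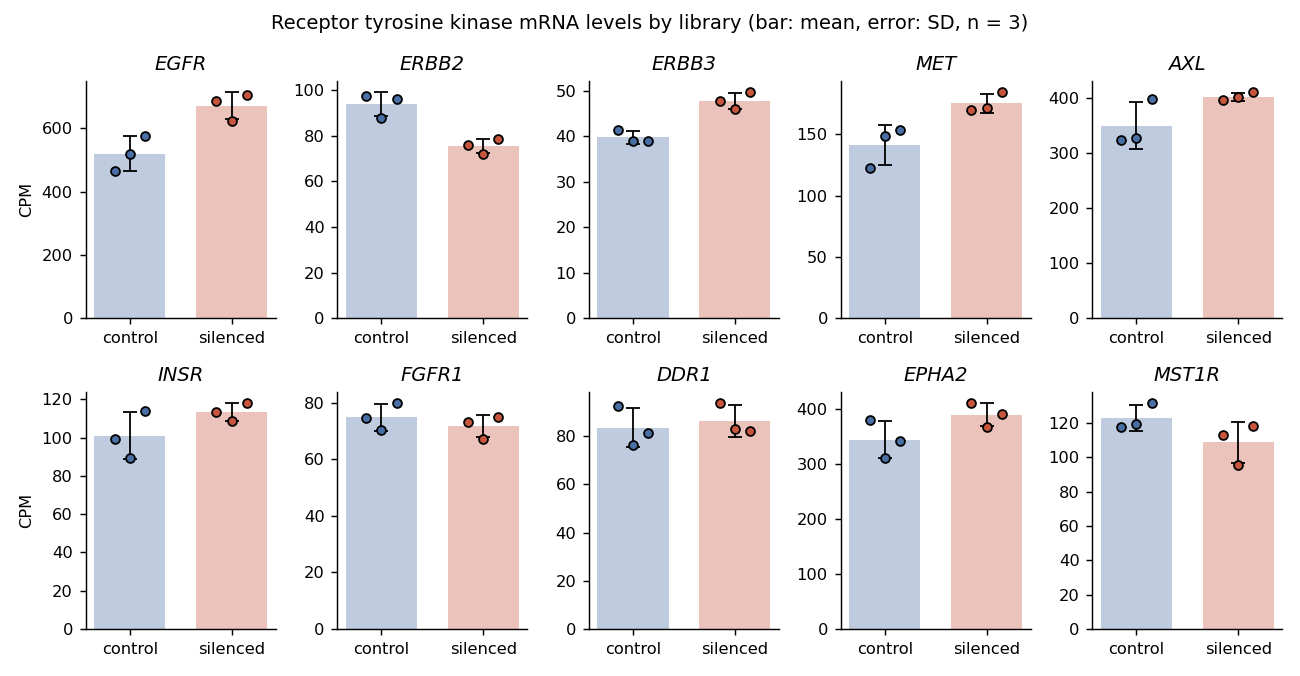
Level of each receptor mRNA in CPM on the vertical axis, from 0, with a point for each of 3 control and 3 silenced libraries, a bar for the mean and an error bar for the SD. The silenced libraries lie above all control libraries for EGFR, ERBB3 and MET and below them for ERBB2, and the groups overlap in the other 6 panels.

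EGFR, the receptor for epidermal growth factor and its relatives, had the most counts of the 10. It was at 465.5, 518 and 577 CPM in control replicates 1 to 3 and at 685, 624 and 705 CPM in silenced replicates 1 to 3. The lowest silenced library was above the highest control library. The mean went from 520.2 ± 55.8 to 671 ± 42.5 CPM (SD, n = 3), a rise of 29.01%. Its log2 fold change was 0.37 ± 0.0875 (SE), with a 95% interval from 0.18 to 0.56 and an adjusted p of 0.0166 (edgeR). The adjusted p was 0.0551 without control replicate 2, 0.0693 without silenced replicate 1 and 0.0505 without silenced replicate 3. EGFR lies on chromosome 7 from 55019021 to 55211628, on the plus strand, with 28 exons in its principal transcript (GRCh38, GENCODE 29). EGFR-AS1, an antisense RNA within this span, had 0 counts in all 6 libraries.

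ERBB3 binds neuregulins but has little kinase activity of its own and signals through its partners, above all ERBB2. Its mRNA was at 41.4, 38.9 and 39.0 CPM in control replicates 1 to 3 and at 47.65, 46.0 and 49.65 CPM in silenced replicates 1 to 3. Each silenced library was above each control library, by at least the gap between 41.4 and 46.0 CPM. The mean went from 39.8 ± 1.44 to 47.75 ± 1.85 CPM, a rise of 20.2% and a log2 fold change of 0.27 ± 0.07715 (95% interval 0.10 to 0.44, edgeR adjusted p = 0.0373). Its call was lost with DESeq2, with an adjusted p of 0.0915, and when all genes with at least 1 count were tested, with 0.0648. It was also lost without control replicate 2, control replicate 3, silenced replicate 1 or silenced replicate 3, with adjusted p-values of 0.102, 0.117, 0.108 and 0.116. ERBB3 lies on chromosome 12 from 56076799 to 56103505, on the plus strand, with 28 exons.

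ERBB2 binds no ligand and is the preferred partner of the other ERBB receptors. It was the only one of the 10 that passed the test as lower, at 97.5, 87.75 and 96.2 CPM in control replicates 1 to 3 and 76.0, 72.2 and 78.5 CPM in silenced replicates 1 to 3. The groups did not overlap. The mean went from 93.8 ± 5.28 to 75.6 ± 3.16 CPM and so fell by 19.4%, a log2 fold change of -0.31 ± 0.07665 (95% interval -0.48 to -0.14, edgeR adjusted p = 0.0191). The adjusted p was 0.0535 without control replicate 1, 0.0525 without control replicate 3, 0.0740 without silenced replicate 1 and 0.0525 without silenced replicate 2. ERBB2 lies on chromosome 17 from 39687914 to 39730426, on the plus strand, with 27 exons, and overlaps MIEN1 and PGAP3 on the other strand. How strands were treated in counting is not stated, and MIEN1 was at 44.96 ± 4.29 CPM in control and 39.6 ± 2.97 CPM in silenced libraries, a log2 fold change of -0.18 with an adjusted p of 0.222 (edgeR). PGAP3 had only 29 to 79 counts in a library.

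Ratios of counts within a library need no normalization between libraries, and the 4 ratios given here were chosen after the values had been seen and are given with no test. There were 4.78, 5.90 and 5.998 counts of EGFR for each count of ERBB2 in control replicates 1 to 3 and 9.02, 8.64 and 8.98 in silenced replicates 1 to 3. This ratio went from 5.56 ± 0.680 to 8.88 ± 0.212 (SD, n = 3), a direction already fixed by the rise of EGFR and the fall of ERBB2. ERBB3 went against ERBB2 in the same way, with 0.425, 0.443 and 0.406 counts of ERBB3 for each count of ERBB2 in control and 0.627, 0.636 and 0.633 in silenced libraries. The ratio of EGFR to ERBB3 overlapped between the groups, at 13.1 ± 1.78 and 14.1 ± 0.426.

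**Figure D2:**
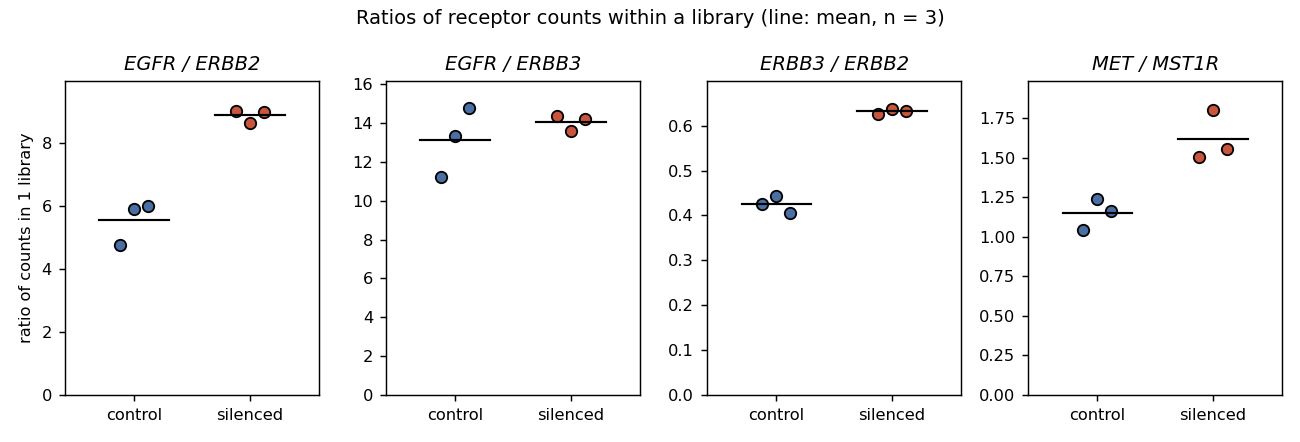
Ratio of the counts of 2 receptors within each library on the vertical axis, from 0, with a point for each of 3 control and 3 silenced libraries and a line for the mean. The silenced libraries lie above the control libraries for EGFR to ERBB2, ERBB3 to ERBB2 and MET to MST1R, and among the control libraries for EGFR to ERBB3.

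MET, the receptor for hepatocyte growth factor, was at 123, 148 and 153 CPM in control replicates 1 to 3 and at 169.9, 172 and 184 CPM in silenced replicates 1 to 3. All silenced libraries were above the control libraries, among which control replicate 1 was low. The mean went from 141 ± 16.3 to 175 ± 7.74 CPM, a rise of 23.8% and a log2 fold change of 0.31 ± 0.0896 (95% interval 0.11 to 0.50, edgeR adjusted p = 0.0378). Without control replicate 1 the log2 fold change was 0.22 and the adjusted p was 0.0963. The call was also lost without control replicate 2, silenced replicate 1, silenced replicate 2 or silenced replicate 3, with adjusted p-values of 0.0656, 0.0910, 0.0622 and 0.105, and with counts thinned to the smallest library, with 0.0611. MET lies on chromosome 7 from 116672390 to 116798386, on the plus strand, with 21 exons.

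MST1R, also called RON, is the closest relative of MET among the 10 and binds macrophage-stimulating protein. It was at 117.6, 119.5 and 132 CPM in control replicates 1 to 3 and at 113, 95.4 and 118.3 CPM in silenced replicates 1 to 3. The groups overlapped only in that silenced replicate 3, the highest of its group, was just above control replicate 1. The log2 fold change was -0.18 ± 0.0918 (95% interval -0.38 to 0.03, edgeR adjusted p = 0.214). The ratio of MET to MST1R counts was 1.04, 1.24 and 1.16 in control and 1.505, 1.80 and 1.56 in silenced libraries, which did not overlap. Its direction follows from the higher mean of MET and the lower mean of MST1R, a pair chosen after the values had been seen. MST1R lies on chromosome 3 from 49887002 to 49903873, on the minus strand, with 20 exons.

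AXL, which binds GAS6 and protein S, and EPHA2, which binds ephrin-A ligands on neighbouring cells, were, per kb, above the other receptors. Neither AXL nor EPHA2 passed the test, although both did with the replicate number as a block. The block raised the number of calls over all 15250 tested genes from 2595 to 3449. Whether libraries of the same number were paired is not settled. AXL was at 323, 328 and 398 CPM in control replicates 1 to 3 and at 396, 401 and 410.2 CPM in silenced replicates 1 to 3. Control replicate 3 lay within the range of the silenced libraries, and the other control libraries lay below it. The log2 fold change of AXL was 0.20 ± 0.0855 (95% interval 0.01 to 0.39, edgeR adjusted p = 0.130). With the replicate block the adjusted p was 0.0497, and without control replicate 3 the log2 fold change was 0.31 and the adjusted p was 0.0229. EPHA2 was at 379, 311 and 341 CPM in control replicates 1 to 3 and at 409.6, 367 and 389.7 CPM in silenced replicates 1 to 3. The groups overlapped, and within each replicate number the silenced library was higher. Its log2 fold change was 0.18 ± 0.0832 (95% interval -0.004 to 0.36, edgeR adjusted p = 0.165), and with the replicate block the adjusted p was 0.0470. AXL lies on chromosome 19 from 41219203 to 41261766 on the plus strand, and EPHA2 on chromosome 1 from 16124337 to 16156087 on the minus strand.

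INSR, FGFR1 and DDR1 did not pass the test and their groups overlapped. INSR, the insulin receptor, was at 99.1, 89.6 and 114 CPM in control replicates 1 to 3 and at 113.5, 109 and 118 CPM in silenced replicates 1 to 3, a log2 fold change of 0.17 ± 0.09255 (95% interval -0.04 to 0.37, edgeR adjusted p = 0.242). FGFR1, a receptor for fibroblast growth factors, was at 75.01 ± 4.81 CPM in control and 71.85 ± 4.02 CPM in silenced libraries, a log2 fold change of -0.06 with a 95% interval from -0.24 to 0.11. DDR1, a receptor for collagens, was at 83.6 ± 8.21 and 86.4 ± 6.46 CPM, a log2 fold change of 0.05 with a 95% interval from -0.15 to 0.25. The interval of INSR included a rise of 0.27, the value of ERBB3, and those of FGFR1 and DDR1 ended below it. INSR lies on chromosome 19 from 7112255 to 7294034 on the minus strand, FGFR1 on chromosome 8 from 38400215 to 38468834 on the minus strand and DDR1 on chromosome 6 from 30876421 to 30900156 on the plus strand. LETM2, which overlaps FGFR1, had 24 to 45 counts in a library.

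**Figure D3:**
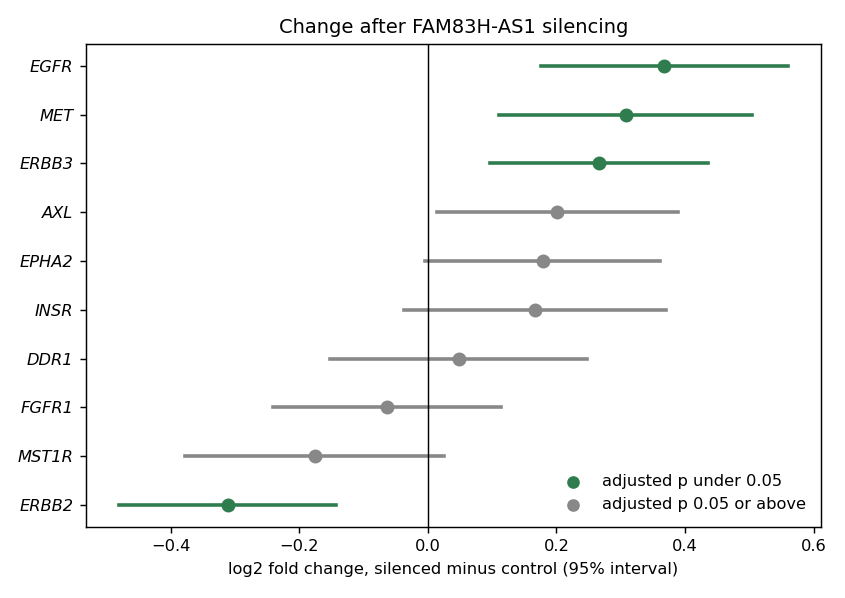
Log2 fold change (silenced minus control) of each receptor on the horizontal axis with its 95% interval, in green where the edgeR adjusted p was under 0.05. The intervals of EGFR, MET and ERBB3 lie above 0 and that of ERBB2 below 0. The interval of AXL also ends above 0, although its adjusted p was 0.130.

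To compare levels between receptors, CPM were divided by the length of the principal transcript in kb. In control libraries EPHA2 was at 86.7 ± 8.63, AXL at 73.8 ± 8.92 and EGFR at 53.0 ± 5.68 CPM per kb (SD, n = 3), and the other 7 receptors were at 27.1 or less. EPHA2 and AXL overlapped, and EGFR was below both in every control library. MST1R came next at 27.1 ± 1.69, followed by INSR at 21.4 ± 2.61, MET at 21.3 ± 2.46, DDR1 at 21.2 ± 2.08 and ERBB2 at 20.6 ± 1.16 CPM per kb. The last 4 of these overlapped each with the next, so that their order was not resolved. FGFR1 at 12.7 and ERBB3 at 6.72 ± 0.243 CPM per kb were the lowest and stood apart from the rest. INSR depended on the transcript: with its longest transcript it was at 11.3 CPM per kb, and FGFR1 was at 12.4 with its own longest. The control libraries of INSR and FGFR1 overlapped on this scale, so that their order was not resolved. After silencing MET was next after EGFR by its mean, at 26.4 ± 1.16 CPM per kb. Its lowest library, at 25.6, was below the highest of MST1R, at 26.1 CPM per kb, so their order was not resolved. ERBB2 at 16.6 ± 0.695 CPM per kb no longer overlapped with DDR1 at 21.9 CPM per kb. The sum over the 10 receptors was 345 ± 21.2 CPM per kb in control and 385 ± 15.4 in silenced libraries, with ranges of 325 to 367.2 and 366.9 to 395 that overlapped at their ends. Of that sum EGFR made up 15.4% ± 1.28 in control and 17.8% ± 0.441 in silenced libraries, and ERBB2 5.995% ± 0.266 and 4.32% ± 0.0568.

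**Figure D4:**
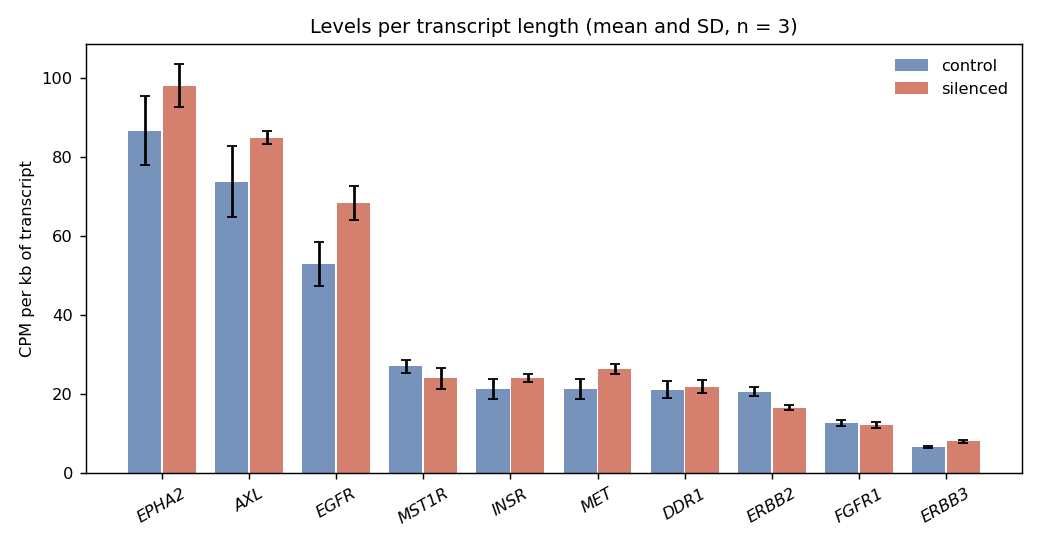
Level of each receptor mRNA in CPM per kb of its principal transcript on the vertical axis, from 0, as mean and SD of 3 control and 3 silenced libraries, ordered by the control level. EPHA2, AXL and EGFR stand above 50 CPM per kb and the other 7 at or below 27.1.

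Promoter windows of EGFR, MET and ERBB2, which passed the test, and of MST1R, the relative of MET, are shown, with the 3′-UTR of MST1R. RefSeq promoters (GRCh38.p14), from 250 bases before to 50 bases after a start, were at hand for 8 of the 10 receptors, but not for ERBB3 and FGFR1. They were searched on both strands for GGGCGG, the GC box, for CCAAT and for TATAAA, which 45%, 34.6% and 11.5% of all 35116 promoters held. The capitals mark the match, which reads CCGCCC or ATTGG where it is on the other strand. The windows held 3 GC boxes in EGFR, 3 in MET and 5 in MST1R, of which those farthest before the start are printed, 204 and 36 bases before it in EGFR, 160 in MET and 106 in MST1R. The CCAAT of ERBB2 lies 243 bases before its start.
EGFR, chr7:55018813-55018818: ctcccatgcgCCGCCCcactcccgcc
EGFR, chr7:55018981-55018986: cctcctcctcCCGCCCtgcctccccg
MET, chr7:116672036-116672041: accttgtcgtGGGCGGggcagaggcg
MST1R, chr3:49903974-49903979: agagtcggatGGGCGGagggcctggg
ERBB2, chr17:39687851-39687855: catgtagATTGGctggcgggag
GC boxes were also present in promoters of EPHA2, INSR, AXL and DDR1, which did not pass the test, so that among the 8 receptors ERBB2 was the one without. EGFR, AXL and DDR1 had several entries and are counted because at least 1 entry held a box, whereas the 45% counts each promoter. Whether a box bears on the change of a receptor was not tested. The GC content of these windows was 75.3% for EGFR, 69.3% for MET, 71.3% for MST1R and 60.7% for ERBB2, compared with a median of 58.7% over all promoters. A second EGFR promoter entry, on chromosome 7 from 55109589 to 55109888, had a GC content of 42%, 0 GC boxes and 2 TATAAA. A match describes the letters only, and nothing follows from it about a factor.

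In the 3′-UTRs (GENCODE 29), the word CCAATAA, which had been picked for being lower after silencing in an earlier look at these data, occurred in 1 of the 10 receptors, MST1R, at base 272 of 305 and with an overlap with a poly(A) signal AATAAA.
MST1R, chr3:49887029-49887035, minus strand: gacccttgaaCCAATAAaggaacaaat
The word was held by 1471 of 11553 tested genes with an annotated 3′-UTR (12.7%). EGFR, MET, ERBB2 and ERBB3, the receptors that passed the test, did not hold it.

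The other receptor tyrosine kinases gave 5 lower and 0 higher genes among 17 tested, with a median log2 fold change of -0.09, while 7 were lower and 0 higher at an unadjusted p under 0.05 and DESeq2 called 4 lower and 0 higher. The median was 0.04, of the other sign, when all genes with at least 1 count were tested, -0.03 with at least 10 counts in every library and -0.04 without control replicate 1. Over all tested genes 8.75% passed as higher and 8.27% as lower. At an unadjusted p under 0.05, 2489 of all 15250 tested genes were higher and 2405 lower. The remaining 31 of 48 listed genes were not tested and reached at most 11 counts in a library, among them KIT, PDGFRA, FGFR2 and ERBB4. FGFR4 was at 42.9, 29.4 and 33.1 CPM in control and 24.4, 23.95 and 26.4 CPM in silenced libraries and so fell by 0.49 on the log2 scale (SE 0.130, edgeR adjusted p = 0.0273). FGFR3 fell by 0.49 (SE 0.120, adjusted p = 0.0195) and ROR2, a receptor for WNT5A, by 0.45 (SE 0.114, adjusted p = 0.0213). AATK, a kinase of the lemur family, fell from 89.4 ± 3.35 to 71.1 ± 8.14 CPM, by 0.33 on the log2 scale (adjusted p = 0.0314). The control and silenced libraries of these 4 genes, which were named for having passed as lower, did not overlap. Over all tested genes 17.5% had all silenced libraries below. EPHB3, named after its value was seen, was the fifth, at 1.77 ± 0.389 CPM in control and 0.775 ± 0.221 CPM in silenced libraries, with a log2 fold change of -1.20 and an adjusted p of 0.0365. Its call was lost with DESeq2 and without each of the 6 libraries in turn, with an adjusted p of up to 0.133. The 4 with the highest counts, which depend on transcript length too, did not pass: LMTK2 at 252 and 221 CPM, IGF1R at 137 and 141 CPM, PTK7 at 117 and 109 CPM and TYRO3 at 94.2 and 91.95 CPM. The number that passed was 0 without control replicate 1 or silenced replicate 2, 1 without control replicate 3 or silenced replicate 1, and 3 without control replicate 2 or silenced replicate 3.

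Some ligands of the 10 receptors were well expressed in these cells, and others had few or no counts. Of 35 listed, 17 were not tested, with at most 19 counts in a library, and HGF, INS, IGF1 and BTC were at 0 in all 6 libraries, where a count of 0 allows up to 3 counts a library. Per kb, the tested ligand with the highest control level was COL4A2, a basement membrane collagen, at 62.9 CPM per kb, followed by EFNA1, a ligand of EPHA2, at 34.8 CPM per kb. Of 18 tested, 2 were higher and 0 lower, with a median log2 fold change of 0.05, 4 were higher and 3 lower at an unadjusted p under 0.05, and DESeq2 called the same numbers as edgeR. Without control replicate 1, 2 or 3 the median was 0.0038, 0.09 or -0.01, so that its sign was not settled. Of all tested genes 17.0% passed, 8.75% as higher and 8.27% as lower. Among all 15250 tested genes, 2489 were higher and 2405 lower at an unadjusted p under 0.05. COL4A1 was at 122, 124 and 139.9 CPM in control and 171, 191 and 176 CPM in silenced libraries and rose by 0.48 on the log2 scale (SE 0.0808, edgeR adjusted p = 0.00339). PROS1, which encodes protein S, rose from 18.1 ± 2.32 to 24.5 ± 3.06 CPM, by 0.43 on the log2 scale (adjusted p = 0.0376). The call of PROS1 was lost without control replicate 1 or 3 and without silenced replicate 1 or 2, with an adjusted p of up to 0.122. Neither EGF nor AREG reached 1 CPM, and TGFA, the EGFR ligand with the highest counts, was at 23.5 and 24.6 CPM.

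The adaptors and proximal transducers, which couple the receptors to RAS, PI3K and STAT3, gave 6 higher and 0 lower genes among 27 tested, with a median log2 fold change of 0.16 and 8 higher and 1 lower at an unadjusted p under 0.05. DESeq2 called 5 higher and 0 lower. The 6 called by edgeR were PIK3CB, IRS2, GAB2, NRAS, STAT3 and VAV2. Over all tested genes 17.0% passed, 8.75% as higher and 8.27% as lower, and 24.7% of those at or above the level of ERBB3. At an unadjusted p under 0.05, 2489 of all 15250 tested genes were higher and 2405 lower. PIK3CB, a catalytic subunit of PI3K, was at 38.9, 42.1 and 42.6 CPM in control and 50.9, 64.4 and 50.9 CPM in silenced libraries, a log2 fold change of 0.43 ± 0.102 (edgeR adjusted p = 0.0174). IRS2, a docking protein of the insulin receptor, rose by 0.42 (adjusted p = 0.0373), although silenced replicate 2 at 86.3 CPM was below control replicate 1 at 86.5 CPM. GAB2, a docking protein, and NRAS, a RAS GTPase, each rose by 0.29 on the log2 scale (adjusted p = 0.0325 and 0.0267). Both calls were lost without any 1 of the control libraries and without silenced replicate 1 or 2. The adjusted p reached 0.0746 for NRAS and 0.0915 for GAB2, whose call was also lost with DESeq2. The number that passed was 1 without control replicate 1 or 2 or silenced replicate 1, 2 without control replicate 3 or silenced replicate 2 and 3 without silenced replicate 3.

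The inhibitors of the receptors gave 5 higher and 2 lower genes among 25 tested, with a median log2 fold change of 0.06 (0.11 without control replicate 1). At an unadjusted p under 0.05, 7 were higher and 4 lower, compared with 2489 higher and 2405 lower of all 15250 tested genes. Of all tested genes 17.0% passed, 8.75% as higher and 8.27% as lower. ERRFI1, also called MIG6, binds and inhibits the kinase domains of the ERBB family, and was at 31.5, 36.3 and 34.9 CPM in control replicates 1 to 3 and at 79.1, 43.65 and 76.3 CPM in silenced replicates 1 to 3. Silenced replicate 2 was far below the other silenced libraries but above all control libraries, and the log2 fold change was 0.95 ± 0.182 (edgeR adjusted p = 0.00613). SPRED1 and SPRED2, which restrain RAF activation, rose by 0.59 and 0.46 on the log2 scale (adjusted p = 0.0136 and 0.00456). CBL, the ubiquitin ligase that marks EGFR and MET for degradation, rose from 84.8 ± 3.02 to 109.6 ± 3.44 CPM, by 0.37 (adjusted p = 0.00636), and SOCS3 was the fifth. PTPN1, the phosphatase PTP1B, which acts on the insulin receptor and on EGFR, was at 105.7, 104 and 104 CPM in control and 35.7, 33.7 and 39.3 CPM in silenced libraries. It fell by 1.52 on the log2 scale (SE 0.0806, adjusted p = 6.59e-06), and PTPRK, a receptor-type phosphatase, fell by 0.31 (adjusted p = 0.0360). The call of PTPRK was lost with DESeq2 and with library size only. It was also lost without any 1 of the control libraries and without silenced replicate 1 or 3, with an adjusted p of up to 0.146. The number that passed was 4 without control replicate 2, where the call of SPRED1 was among those lost, at an adjusted p of 0.0503.

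Genes of receptor maturation, shedding and trafficking gave 3 higher and 3 lower genes among 19 tested, with a median log2 fold change of 0.14. With the replicate block 11 passed, 7 higher and 4 lower, of which ADAM10, EPN1, HSP90AA1, STAM2 and USP8 were added. Over all 15250 tested genes 3449 passed with the block, 1714 higher and 1735 lower. In the fit without the block, 17.0% of all tested genes passed, 8.75% as higher and 8.27% as lower. HSP90B1, the chaperone of the endoplasmic reticulum, was at 437, 564 and 549.4 CPM in control and 761, 883 and 809 CPM in silenced libraries, a log2 fold change of 0.66 ± 0.0999 (edgeR adjusted p = 0.00185). CDC37, which brings kinases such as ERBB2 to HSP90, went the other way, from 216.5 ± 9.60 to 122 ± 12.9 CPM, and fell by 0.83 on the log2 scale (SE 0.0866, adjusted p = 2.33e-04). ADAM17, which sheds ligands of EGFR, and STAM, a sorting factor of endosomes, rose by 0.38 and 0.32 (adjusted p = 0.0231 and 0.0415). ADAM17 was no longer called without control replicate 1 or 3 or any silenced library (adjusted p up to 0.0656), nor STAM with DESeq2, without any control library or without silenced replicate 1 or 2 (up to 0.152). SORT1 and RAB7A, which act in sorting and in late endosomes, fell by 0.42 and 0.24 (adjusted p = 0.00469 and 0.0310), the latter call being lost under library size only, without any control library and without silenced replicate 1 or 3 (up to 0.105). The number that passed was 3 without control replicate 1 or 3 or silenced replicate 1. With all genes with at least 1 count it was 10 of 22, where 3449 of all 25864 genes passed.

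**Figure D5:**
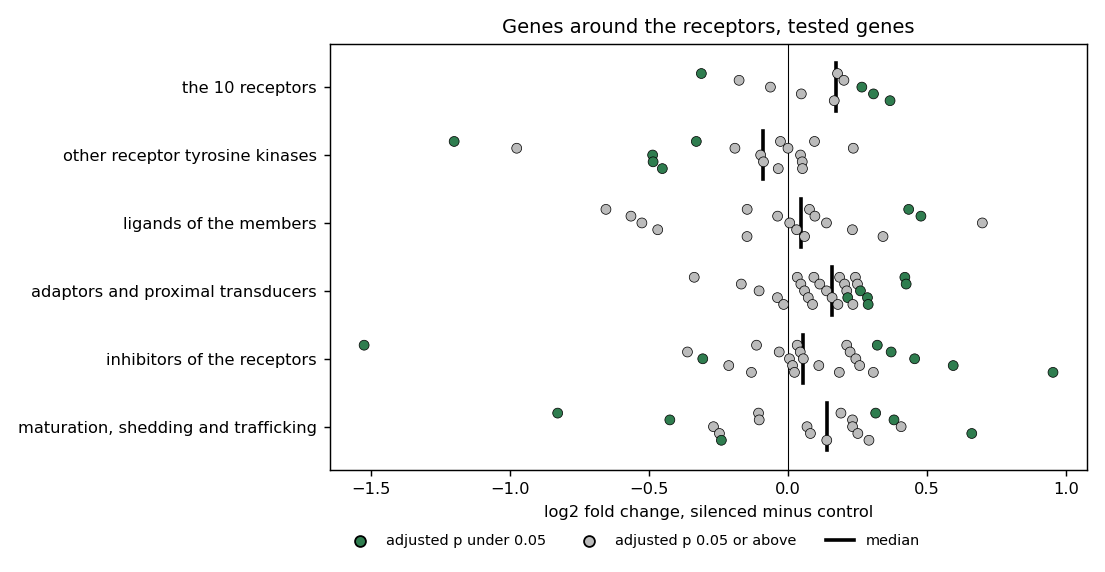
Log2 fold change (silenced minus control) of the tested genes of each list on the horizontal axis, 1 point a gene, in green where the edgeR adjusted p was under 0.05, with a black bar at the median. PTPN1 and CDC37 are the green points far to the left in the inhibitor and maturation rows, ERRFI1 is the one at 0.95, and all green points of the other receptor tyrosine kinases lie left of 0.

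The genes whose pattern over the 6 libraries was most like that of EGFR, by the root mean square distance of centred log2 CPM among genes with a mean of at least 100 counts, were WDR54, ABLIM3 and AHNAK, at distances of 0.0297, 0.0374 and 0.0398. AHNAK, which encodes a giant scaffold protein beneath the cell membrane, went from 2341 ± 204 to 3011 ± 155 CPM, WDR54 from 39.7 ± 3.90 to 52.2 ± 4.44 CPM and ABLIM3 from 40.2 ± 3.96 to 51.1 ± 3.88 CPM. Like EGFR, each was highest in silenced replicate 3 or 1 and lowest in control replicate 1. This likeness and their rise follow from how they were chosen.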

How the data were processed

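The authors made Ion Proton libraries from total RNA and used MapSplice to obtain mapped reads per gene. The deposited table holds such whole-number counts, not normalized. The submitters' processing notes name GRCh37. The annotation and the treatment of strands and of reads with several matches are not given in the sources used here. Groups and replicate numbers came from the labels.

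Counts were tested with edgeR 4.0.16 in R 4.3.3 (filterByExpr, TMM, quasi-likelihood F test, Benjamini-Hochberg adjustment over 15250 genes, of 40173 listed and 25864 with a count). No row lacked a gene name. A call was an adjusted p under 0.05. The SE of a log2 fold change is its size over the root of F, and 95% intervals use t with 11.2 degrees of freedom. CPM use TMM-normalized library sizes. The common dispersion was 0.0108. Precision rests on 9738291 to 17742643 counts a library.

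Alternatives were DESeq2 1.42.0, other normalizations and filters, thinned counts, a replicate block, stricter thresholds, each library left out, and, added after the data were seen, genes of type mRNA only. Deviations of libraries with the same replicate number from their group means correlated at 0.184, 0.277 and 0.101 over 12129 genes. Libraries with different replicate numbers were not compared in this way, so these values do not settle whether the libraries were paired. The fit reported had no block, and the blocked value is given where it changed a call. The block rests on the replicate numbers alone, and the study's own gene table numbers the silenced libraries differently.

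Genes were located with GENCODE 29 on GRCh38. The principal transcript gave lengths, and promoters came from RefSeq on GRCh38.p14. Python 3.11.15 was used for these steps. The fits were tested on simulated data of this comparison: among 15318 genes edgeR recovered 69 of 100 changes of 0.5 and 100 of 100 changes of 1 (log2), with 4 false calls. DESeq2 recovered 76 and 100 of these, with 10 false calls among the 10405 genes to which it gave an adjusted p. Only genes with many counts were changed, all genes had the same dispersion, and no change smaller than 0.5 was simulated.

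Genes named were the 10 receptors, FAM83H-AS1, up to 4 higher and 4 lower called genes of each list with a mean of at least 20 counts, the 4 other receptor tyrosine kinases with the highest mean count and the 3 genes nearest to EGFR, the receptor with the smallest adjusted p. The members and lists were chosen with earlier results of these data known. Of the cell line markers checked, 1 is not reported here.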

Additional observations from a re-analysis of the deposited data

How the results depend on the processing

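Of the 10 receptors, 4 passed in the fit reported, and 4 passed with RLE factors, library size only, upper quartile factors, at least 10 counts in every library and mRNA only. With all genes with at least 1 count, DESeq2 or thinned counts 3 passed, and with the replicate block 6, AXL and EPHA2 being added. The block changed no other receptor's call. With an adjusted p under 0.01 the number was 0, and with a fold change over 2 it was 0, where 5 receptors had an unadjusted p under 0.05. Over all 15250 tested genes, 2489 were higher and 2405 lower at that unadjusted p. Without a library 0 to 3 receptors passed: 0 without silenced replicate 1 (4 with an unadjusted p under 0.05, in a smaller group), 1 without control replicate 2 or silenced replicate 3, 2 without control replicate 1 or silenced replicate 2, and 3 without control replicate 3, AXL among them. For all genes the number was 2595, with 903 at an adjusted p under 0.01 and 326 with a fold change over 2. It was 3449 of 15250 with the replicate block and 1225 to 1962 without a library. Under library size only, the median of all genes moved to 0.03 and 61.1% of calls were higher, compared with 51.4%.

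Over 15 alternatives the log2 fold change was 0.29 to 0.45 for EGFR, -0.36 to -0.28 for ERBB2, 0.23 to 0.30 for ERBB3 and 0.22 to 0.37 for MET. The value of DDR1 turned sign without control replicate 2 (-0.0113) and without silenced replicate 1 (-0.0145), and ranged from -0.0145 to 0.12 without a library. INSR was at 11.3 CPM per kb of its longest transcript. Of the genes named from the lists, COL4A1, ERRFI1, SPRED2, CBL, PTPN1, HSP90B1, CDC37 and SORT1 passed in all 15. Calls of the other 14 were each lost in 1 to 7 of the alternatives, leaving out a library in most, and that of EPHB3 in 7 of 14. NRG4 and GRB7 were added with the block. The calls of EGFR, ERBB2, ERBB3 and MET were lost in 3, 4, 6 and 6 of the 15 alternatives. No change smaller than 0.5 on the log2 scale was simulated, so the smallest change that 3 libraries a group can resolve was not measured.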
